A study of Mus musculus with 12 samples.

Results

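The genes described here are 10 listed markers of the alveolar type 1 cell, measured in 12 bulk RNA libraries from mouse lung tumours: Ager, Hopx, Pdpn, Aqp5, Rtkn2, Clic5, Gramd2, Cav1, Akap5 and Emp2. They were chosen by name, and all 10 were found among the 19212 genes of the expression table. OTUB1_KD tumours were grown from LLC cells, a Lewis lung carcinoma line of the mouse, that had received a lentivirus knocking down Otub1, and NC tumours from LLC cells with a negative control lentivirus. In the other experiment, mice with LLC tumours were given SFD@M, a treatment that the labels do not describe further, or physiological saline (Blank). Each group had 3 libraries; the knockdown experiment used tumours placed in the lung, the genotype label is WT outside OTUB1_KD, and the labels do not tell whether libraries of the same group stem from different mice. The p-values thus measure only how far these libraries spread, which may be technical. The labels state neither sex, age nor strain of the mice.

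Alveolar type 1 cells are the thin, wide cells that cover most of the gas exchange surface of the lung. They can arise from alveolar type 2 cells, the cuboidal cells that make surfactant, and then pass through an intermediate state on the way. They lie against capillary endothelium across a shared basement membrane, are rich in caveolae, and are recognised by surface and cytoskeletal proteins that include the products of the genes listed here.

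The libraries held 16062806 to 18028828 estimated counts each. Levels are given as CPM, gene counts scaled to a common library total. Sftpc, the surfactant protein C gene of type 2 cells, had 6755 to 16400 CPM in OTUB1_KD and SFD@M libraries, against at most 0.116 CPM in NC and Blank libraries, so a defining lung marker was all but absent from those tumours. Leukocyte markers, 8 in all, summed to 1.30 to 1.99 CPM in NC and 0.523 to 0.754 CPM in Blank. They summed to 562.8 to 694.5 CPM in OTUB1_KD and 494.5 to 554.9 CPM in SFD@M. Ptprc, a leukocyte surface gene, averaged 0.0623 and 0.0194 CPM in NC and Blank, and Cdh5, an endothelial cadherin gene, 0 and 0.0194 CPM. Which cells the NC and Blank libraries held was not tested. The summed level of 4 Y-linked genes, which was high in all NC and Blank libraries, was 36.9%, 0.184% and 7.08% of the NC mean in OTUB1_KD replicates 1 to 3 and at most 0.442% of the Blank mean in SFD@M libraries. Otub1 itself had 58.6, 49.3 and 71.2 CPM in OTUB1_KD libraries, against 76.2, 73.9 and 69.8 CPM in NC libraries, so the groups overlapped in replicate 3. Libraries of the same group differed by 93.4 to 154 times the variance that counting alone gives in OTUB1_KD and 16.2 to 30.6 times in SFD@M, against 1.3 to 1.95 times in NC and Blank. In bulk samples, fewer cells of a type and less RNA per cell cannot be told apart, and that holds for every level below.

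In OTUB1_KD against NC, 9 of the 10 genes were called higher and 0 lower by edgeR's quasi-likelihood test with Benjamini-Hochberg adjusted p below 0.05 over all genes, and Cav1 was not called. Of the 14785 genes tested, 65.7% were called, 39.9% higher and 25.8% lower. The median log2 fold change of the 10 genes was 6.47, beside 0.16 over all genes tested. In SFD@M against Blank all 10 were called higher with a median of 7.44, where 88.1% of 14824 genes were called, 49.5% higher and 38.7% lower, and the median of all genes was 0.23. The Y-linked sum and the lung markers given above moved with both contrasts, and their part in these results was not tested.

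**Figure D1:**
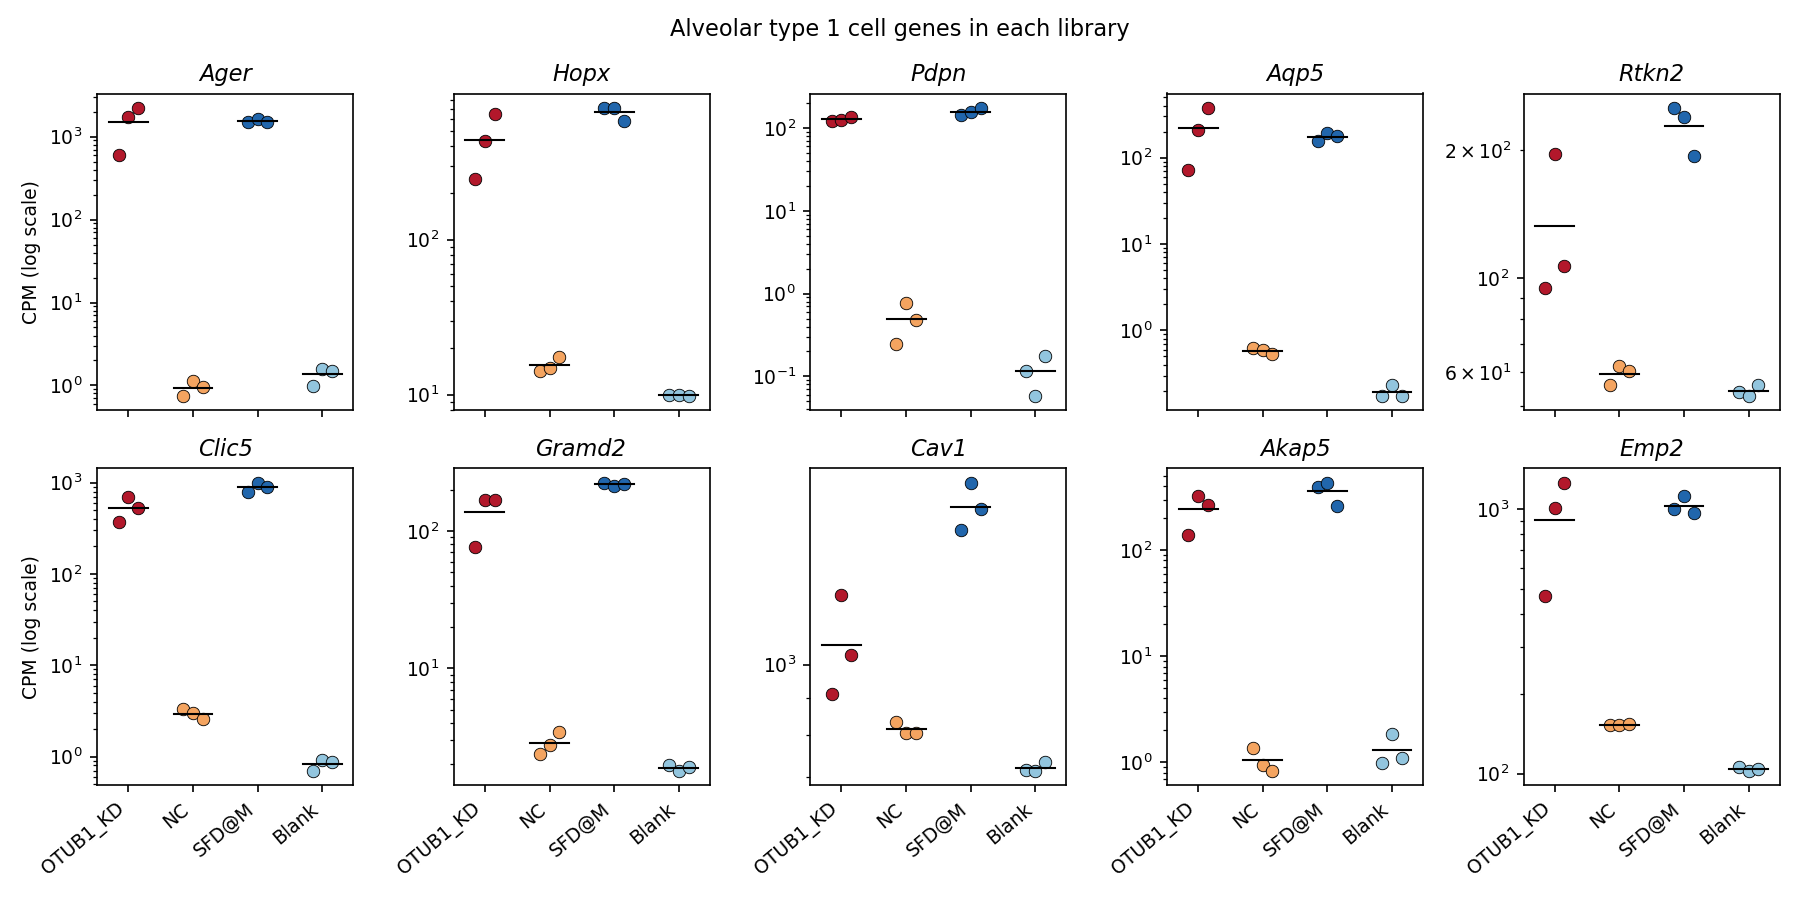
Level of each of the 10 genes in CPM on a log axis (y axis) in the 3 libraries of OTUB1_KD, NC, SFD@M and Blank (x axis), with points for libraries and a bar for the mean. For Ager the OTUB1_KD points lie between 594 and 2224 CPM and the NC points between 0.747 and 1.13 CPM, while for Cav1 all 12 points lie between 714 and 1783 CPM.

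Among surface proteins, Ager, which encodes the receptor for advanced glycation end products (RAGE), had 594, 1713 and 2224 CPM in OTUB1_KD libraries, against 0.747, 1.13 and 0.950 CPM in NC libraries. SFD@M libraries had 1510, 1616 and 1508 CPM, against 0.989, 1.56 and 1.51 CPM in Blank libraries. Every OTUB1_KD and SFD@M library was above every NC and Blank library, and replicate 1 of OTUB1_KD was the low one of its group. The log2 fold change was 10.57 ± 0.70 (SE) in OTUB1_KD against NC, with an edgeR adjusted p of 4.52e-05, and 10.11 ± 0.14 in SFD@M against Blank, with an edgeR adjusted p of 4.28e-09. The low side rests on 12 to 19 counts per NC library and 17.0 to 27.0 per Blank library. A predicted Ager transcript held 0.335% to 0.806% of the gene's counts in OTUB1_KD and SFD@M libraries, against 0% to 54.9% of the few counts in NC and Blank libraries.

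Pdpn encodes podoplanin, a mucin-like glycoprotein of the apical membrane that lymphatic endothelium, mesothelium and fibroblasts also make. It had 120.3, 125 and 137.0 CPM in OTUB1_KD libraries, against 0.249, 0.773 and 0.474 CPM in NC libraries. It had 143.0, 155 and 176 CPM in SFD@M libraries, against 0.116, 0.0580 and 0.175 CPM in Blank libraries. Unlike Ager it was nearly level across the 3 OTUB1_KD libraries. The log2 fold change was 7.91 ± 0.34 in OTUB1_KD against NC, with an edgeR adjusted p of 1.37e-05. In SFD@M against Blank it was 10.28 ± 0.19, with an edgeR adjusted p of 8.70e-09 and only 1 to 3 counts in each Blank library behind it.

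Aqp5 encodes aquaporin 5, a water channel of the apical membrane that airway glands also make. OTUB1_KD libraries had 72.3, 212 and 377 CPM, the widest spread of any of the 10 genes, against 0.623, 0.594 and 0.533 CPM in NC libraries. SFD@M libraries had 155, 191 and 177 CPM, against 0.174, 0.232 and 0.175 CPM in Blank libraries. The log2 fold changes were 8.49 ± 0.77 in OTUB1_KD against NC (edgeR adjusted p = 0.000139) and 9.73 ± 0.17 in SFD@M against Blank (edgeR adjusted p = 6.94e-09). Replicate 1 of OTUB1_KD was again lowest, and replicate 3 was above every SFD@M library.

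Emp2, a tetraspan membrane protein gene, was also well above zero in NC and Blank libraries. It had 468, 1003 and 1253 CPM in OTUB1_KD libraries, against 153, 152 and 154 CPM in NC libraries. It had 999, 1115 and 966 CPM in SFD@M libraries, against 106, 103 and 105 CPM in Blank libraries. The groups did not overlap in either experiment, and the log2 fold changes were smaller, 2.51 ± 0.37 in OTUB1_KD against NC (edgeR adjusted p = 0.00117) and 3.26 ± 0.08 in SFD@M against Blank (edgeR adjusted p = 2.18e-08).

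Cav1 encodes caveolin-1, the main coat protein of caveolae, and is made by endothelium, fibroblasts and many tumour lines as well. It had 912, 1249 and 1031 CPM in OTUB1_KD libraries, against 833, 805 and 805 CPM in NC libraries. The groups did not overlap in CPM. In TPM, a level scaled for transcript length, OTUB1_KD replicate 1 had 564.9, within the NC range of 561.3 to 579.2. The log2 fold change of 0.32 ± 0.19 was not called (edgeR adjusted p = 0.174). Without OTUB1_KD replicate 1, the library with the most Y-linked signal of its group, it was 0.41 with an edgeR adjusted p of 0.0248. In the other experiment Cav1 had 1535, 1783 and 1641 CPM in SFD@M libraries, against 716, 714 and 733 CPM in Blank libraries, a log2 fold change of 1.16 ± 0.08 (edgeR adjusted p = 2.89e-06). Of 5 other caveola genes, 3 rose in OTUB1_KD against NC and 2 were not called, while 4 rose in SFD@M against Blank and 1 was not called. Over all genes tested, 39.9% and 49.5% were called higher, and 65.7% and 88.1% in either direction, so these counts mark nothing particular to caveola genes. Cavin2, a caveolar coat gene, rose by 2.15 ± 0.30 and 3.71 ± 0.16 on the log2 scale in these comparisons, and Ehd2, an ATPase at the caveolar neck, by 1.61 ± 0.27 and 1.23 ± 0.11. Cav2, which pairs with Cav1 in caveolae, had a log2 fold change of -0.34 ± 0.23 in OTUB1_KD against NC and 0.86 ± 0.08 in SFD@M against Blank (edgeR adjusted p = 0.222 and 2.46e-05).

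Clic5 encodes a chloride intracellular channel family protein that links membrane and actin cytoskeleton. It had 372, 700.4 and 528 CPM in OTUB1_KD libraries, against 3.30, 2.97 and 2.61 CPM in NC libraries, a log2 fold change of 7.42 ± 0.34 (edgeR adjusted p = 1.59e-05). It had 788, 997 and 891 CPM in SFD@M libraries, against 0.697, 0.928 and 0.875 CPM in Blank libraries, a log2 fold change of 10.02 ± 0.16 (edgeR adjusted p = 6.13e-09). All SFD@M libraries were above all OTUB1_KD libraries, and all Blank libraries below all NC libraries. The low side rests on 44 to 53 counts per NC library and 12 to 16 per Blank library.

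Akap5, whose product anchors protein kinase A, had 139.6, 321 and 269 CPM in OTUB1_KD libraries, against 1.37, 0.951 and 0.830 CPM in NC libraries. SFD@M libraries had 395, 432 and 263 CPM, against 0.988, 1.86 and 1.11 CPM in Blank libraries. Its log2 fold changes were 7.78 ± 0.45 in OTUB1_KD against NC (edgeR adjusted p = 2.83e-05) and 8.06 ± 0.30 in SFD@M against Blank (edgeR adjusted p = 1.67e-07). Gramd2, a gene of a GRAM-domain protein of contacts between endoplasmic reticulum and plasma membrane, had 77.1, 169.9 and 169 CPM in OTUB1_KD libraries, against 2.37, 2.79 and 3.44 CPM in NC libraries. It had 225, 214 and 222 CPM in SFD@M libraries, against 1.98, 1.80 and 1.92 CPM in Blank libraries. Neither gene overlapped between groups in either experiment, and the Gramd2 log2 fold changes were 5.53 ± 0.40 and 6.82 ± 0.07 (edgeR adjusted p = 5.73e-05 and 3.33e-09).

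Rtkn2 was well above zero in every group. It had 94.7, 196 and 107 CPM in OTUB1_KD libraries, against 55.9, 62.2 and 60.5 CPM in NC libraries. It had 252, 240.2 and 194 CPM in SFD@M libraries, against 53.8, 52.8 and 56.1 CPM in Blank libraries. The log2 fold change of 1.08 ± 0.28 in OTUB1_KD against NC (edgeR adjusted p = 0.0123) leaned on OTUB1_KD replicate 2, without which it was 0.70. In SFD@M against Blank it was 2.04 ± 0.10 (edgeR adjusted p = 5.38e-07).

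Hopx encodes a small homeodomain protein that does not bind DNA and acts as a transcriptional cofactor. It had 245.0, 435 and 643 CPM in OTUB1_KD libraries, against 14.1, 14.7 and 17.6 CPM in NC libraries, a log2 fold change of 4.77 ± 0.41 (edgeR adjusted p = 0.00011). It had 708, 708 and 582 CPM in SFD@M libraries, against 9.94, 9.91 and 9.79 CPM in Blank libraries, a log2 fold change of 6.04 ± 0.11 (edgeR adjusted p = 7.76e-09). The groups did not overlap.

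The promoters of Ager and Hopx are shown because Ager had the highest mean TPM, a level scaled for transcript length, of the 10 genes in both OTUB1_KD and SFD@M and because the start sites of Hopx differed between groups. Each sequence is 300 bases, 250 before and 50 after a transcript start, from RefSeq on GRCm38.p6, which is not the GRCm39 build named in the submitters' processing notes. The Ager promoter is chr17:34597600-34597899 on the plus strand, the upstream Hopx promoter chr5:77115074-77115373 and the downstream Hopx promoter chr5:77095218-77095517, both on the minus strand, with start sites 19856 bases apart. Capitals mark matches to a CArG box, the motif of serum response factor, or to CTTGAG, a core motif of NKX2 factors.
Ager promoter: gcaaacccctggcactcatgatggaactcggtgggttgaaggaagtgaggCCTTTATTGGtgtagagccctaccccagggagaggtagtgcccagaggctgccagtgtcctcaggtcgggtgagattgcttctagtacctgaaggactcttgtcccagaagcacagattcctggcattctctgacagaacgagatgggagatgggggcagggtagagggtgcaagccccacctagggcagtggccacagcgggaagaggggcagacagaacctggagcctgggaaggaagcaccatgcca
Hopx upstream promoter: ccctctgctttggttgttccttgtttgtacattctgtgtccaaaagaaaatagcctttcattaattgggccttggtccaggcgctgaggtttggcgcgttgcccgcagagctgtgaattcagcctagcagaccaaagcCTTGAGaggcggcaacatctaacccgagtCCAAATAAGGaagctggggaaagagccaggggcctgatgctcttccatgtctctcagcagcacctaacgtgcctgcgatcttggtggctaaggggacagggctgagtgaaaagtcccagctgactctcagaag
Hopx downstream promoter: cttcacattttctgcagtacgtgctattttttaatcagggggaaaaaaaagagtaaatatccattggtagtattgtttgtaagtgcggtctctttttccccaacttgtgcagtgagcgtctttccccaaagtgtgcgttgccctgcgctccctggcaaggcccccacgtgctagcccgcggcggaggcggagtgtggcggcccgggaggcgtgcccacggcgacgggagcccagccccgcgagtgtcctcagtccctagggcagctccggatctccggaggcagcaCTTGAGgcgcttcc

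Both strands were searched in 14 promoters of 9 of the genes; Rtkn2 had no promoter in the table. The CArG box lies 200 bases before the Ager start and 83 bases before the upstream Hopx start, and these were the 2 promoters of the 14 that held it, beside 1.63% of all 32851 promoters. CTTGAG lies 112 bases before the upstream Hopx start and 36 bases after the downstream one; it too was in 2 of the 14, beside 15.9% of all promoters. GGAATG, the core motif of TEAD factors, was in 0 of the 14, beside 14.7% of all. The motifs did not overlap each other, they were chosen after the promoters had been seen, and a match or its absence in this window is a description only.

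The 2 Hopx start sites whose promoters are printed above were used differently, a pattern noticed after the values had been seen and given without a test. Transcript levels are the deposited TPM, scaled for transcript length, and rest on an estimate of how shared reads divide between transcripts. The upstream start had 217, 419 and 689 TPM in OTUB1_KD libraries, against 0, 0.72 and 0.25 TPM in NC libraries. It had 589, 692 and 515 TPM in SFD@M libraries and was listed at 0 in all 3 Blank libraries. The downstream start had 148, 159 and 179 TPM in OTUB1_KD libraries, against 27.0, 27.2 and 33.1 TPM in NC libraries, and 376, 322 and 286 TPM in SFD@M libraries, against 19.4, 19.2 and 19.0 TPM in Blank libraries. The upstream start thus held 59.5% to 79.4% of Hopx TPM in OTUB1_KD, against 0% to 2.58% in NC, and 61.0% to 68.3% in SFD@M, against 0% in Blank, so that nearly all Hopx RNA of NC and Blank libraries was assigned to the downstream start. Summed over 3 libraries, the upstream transcript had 17916 estimated counts in OTUB1_KD and 10.4 in NC. In SFD@M it had 23217, against 0 in Blank, which is at least 7830-fold higher in SFD@M when a floor of 3 counts over the 3 Blank libraries is used, for counting error only. The downstream transcript averaged 5.56 times as much TPM in OTUB1_KD as in NC and 17.1 times as much in SFD@M as in Blank.

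**Figure D2:**
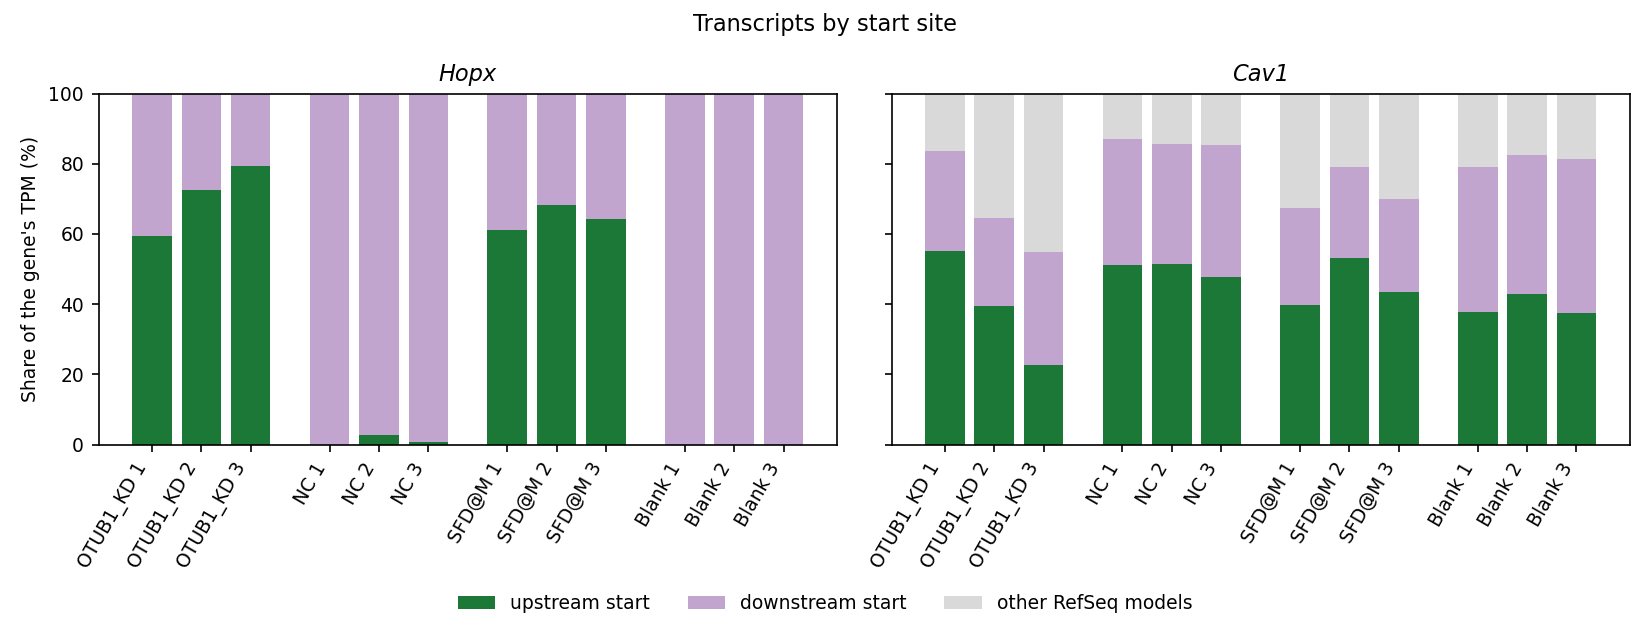
Share of the TPM of Hopx (left) and Cav1 (right) in percent (y axis) by transcript start site, as stacked bars from 0 for each library (x axis). For Hopx the upstream start takes 59.5% to 79.4% in OTUB1_KD and 61.0% to 68.3% in SFD@M but at most 2.58% in NC and 0% in Blank, while for Cav1 both starts appear in all 12 libraries.

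Cav1 was different in this respect. Its 2 start sites, 1305 bases apart, were both used in every library. The upstream start held 22.7% to 55.2% of Cav1 TPM in OTUB1_KD libraries and 47.7% to 51.5% in NC libraries, and 39.8% to 53.0% in SFD@M libraries and 37.4% to 42.9% in Blank libraries. The downstream start held 24.8% to 32.1% in OTUB1_KD libraries and 34.2% to 37.6% in NC libraries. It held 26.0% to 27.7% in SFD@M libraries and 39.7% to 43.9% in Blank libraries. The rest went to other RefSeq models that were not assigned to a start site. The largest of these models held 13.9% to 40.8% in OTUB1_KD libraries and 10.6% to 12.45% in NC libraries. It held 14.7% to 22.1% in SFD@M libraries and 15.5% to 18.35% in Blank libraries. The upstream ranges thus overlapped in both experiments, while the downstream share was lower in every OTUB1_KD and SFD@M library than in its control libraries. The part of the unassigned models in these shares was not tested.

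A limit of 1 CPM in NC and Blank libraries was used to divide the list. Hopx, Rtkn2, Gramd2, Cav1 and Emp2 were at 1 CPM or more in each of the 6 NC and Blank libraries, which lacked the surfactant signal. They are here called made in the NC and Blank tumours, and Ager, Pdpn, Aqp5, Clic5 and Akap5 are not. The split is not sharp. Clic5 had 2.61 to 3.30 CPM in NC libraries, where Gramd2 had 2.37 to 3.44 CPM, and fell below the limit in Blank alone. Ager and Akap5 had libraries on both sides of it. The NC mean was 76.5% of the OTUB1_KD mean for Cav1, 44.9% for Rtkn2, 16.9% for Emp2, 3.51% for Hopx and 2.07% for Gramd2. The Blank mean was 43.6% of the SFD@M mean for Cav1, 23.7% for Rtkn2, 10.2% for Emp2, 1.48% for Hopx and 0.862% for Gramd2.

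On the length-corrected TPM scale the order of the genes turned over. Ager led in OTUB1_KD (mean 1770 TPM) and SFD@M (mean 1812 TPM), followed by Cav1 (661 and 985 TPM), Hopx (604 and 927 TPM) and Emp2 (377 and 416 TPM). In both groups Cav1 and Hopx overlapped in their library ranges. In NC and Blank, Cav1 led with means of 568 and 524 TPM, and Emp2 followed with 74.2 and 52.1 TPM, while Ager had 1.33 and 1.96 TPM. Cav1 alone made up 12.4% to 25.3% of the summed TPM of the 10 genes in OTUB1_KD, against 80.6% to 82.1% in NC, and 19.4% to 20.9% in SFD@M, against 84.3% to 84.5% in Blank. The 5 genes called made in the NC and Blank tumours held 39.8% to 53.4% of the sum in OTUB1_KD, against 99.4% to 99.5% in NC. They held 49.7% to 51.9% in SFD@M, against 99.5% to 99.6% in Blank.

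The NC and Blank groups come from different experiments, so experiment and group cannot be told apart. Of the 8 genes tested in Blank against NC, 6 were lower, 0 higher and 2 not called, in a comparison where 74.3% of 12087 genes were called, 37% higher and 37.2% lower. Clic5 fell by 1.82 ± 0.23 on the log2 scale (edgeR adjusted p = 4.36e-11), Hopx by 0.65 ± 0.09 (edgeR adjusted p = 6.71e-10) and Emp2 by 0.55 ± 0.03 (edgeR adjusted p = 4.88e-28). Gramd2, Cav1 and Rtkn2 had log2 fold changes of -0.60, -0.18 and -0.14, all called. Ager, at 0.52, and Akap5, at 0.33, were not called (edgeR adjusted p = 0.0787 and 0.273), and Pdpn and Aqp5 had too few counts to be tested.

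**Figure D3:**
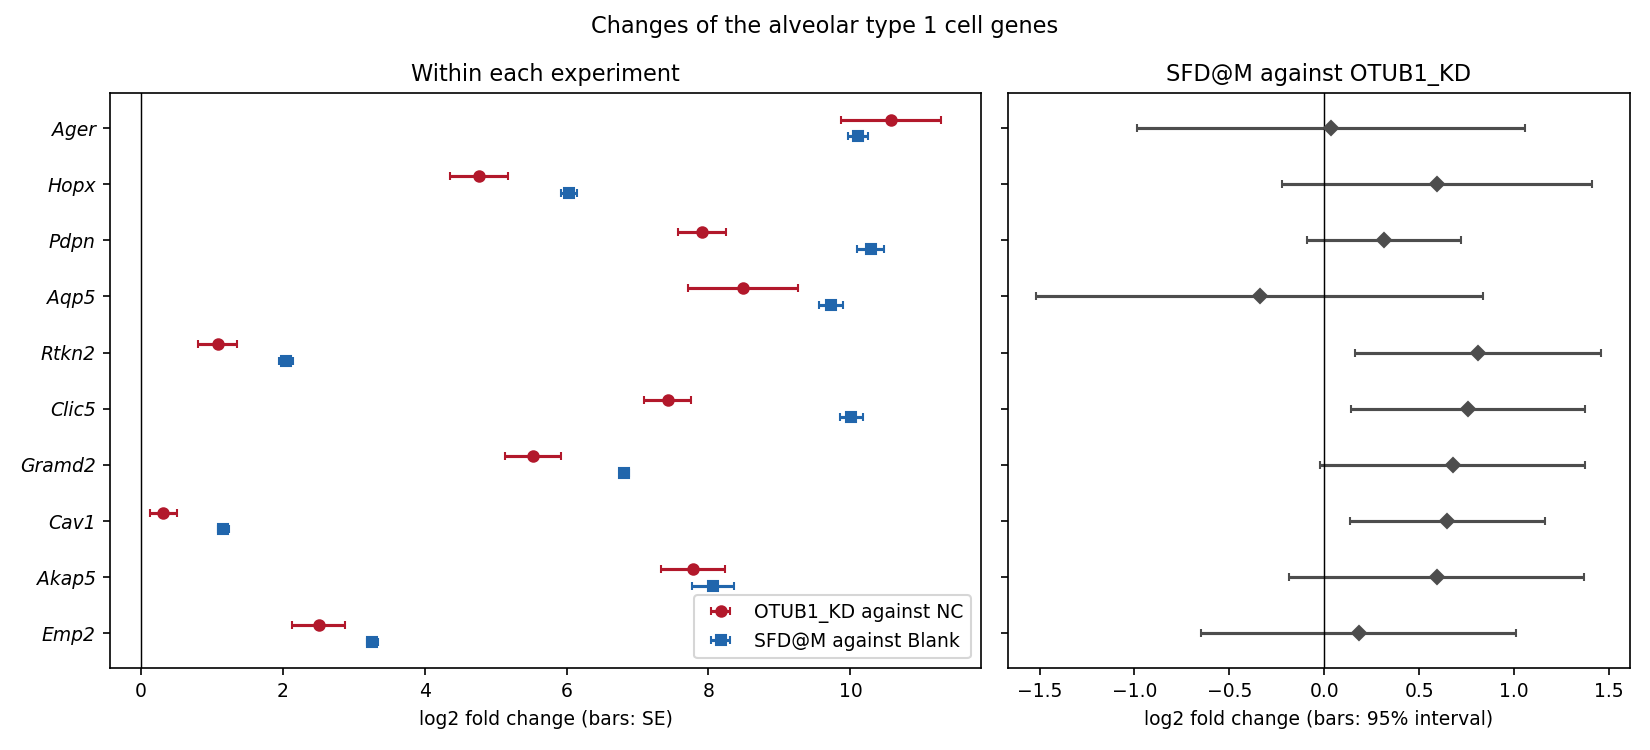
Left, log2 fold change with SE (x axis) of each gene (y axis) in OTUB1_KD against NC (circles) and in SFD@M against Blank (squares); right, log2 fold change of SFD@M against OTUB1_KD with its 95% interval. Ager is at 10.57 and 10.11 on the left and at 0.04 on the right, and Cav1 has the smallest changes on the left, 0.32 and 1.16.

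SFD@M and OTUB1_KD were then compared, again across experiments. By edgeR 0 of the 10 genes were called, where 0.0134% of 14914 genes (2 genes) were; 3 of the 10, Rtkn2, Clic5 and Cav1, and 2966 of all genes had an unadjusted p below 0.05, and DESeq2 called Cav1. Ager averaged 1545 ± 61.6 CPM in SFD@M and 1510 ± 834 CPM in OTUB1_KD (SD, n = 3 each), a log2 fold change of 0.04 with a 95% interval of -0.99 to 1.06. The intervals for Rtkn2 (0.16 to 1.46), Clic5 (0.14 to 1.38) and Cav1 (0.14 to 1.16) lay above 0, and that for Pdpn ran from -0.09 to 0.72. Changes of up to about these bounds are therefore not excluded by the data, and the missing calls do not show that the groups are alike.

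Whether the changes of the 2 experiments differed was tested over all 12 libraries as SFD@M against Blank minus OTUB1_KD against NC. This difference was called for 6 of the 10 genes, all with the greater change in SFD@M against Blank, where 23.1% of 15304 genes were called, 12.4% in that direction and 10.8% in the other. Clic5 had a difference of 2.63 ± 0.34 on the log2 scale (edgeR adjusted p = 0.000823) and Pdpn 2.41 ± 0.51 (edgeR adjusted p = 0.00916). Gramd2, Hopx, Rtkn2 and Cav1 followed with 1.32, 1.30, 0.99 and 0.87, and Ager, Aqp5, Akap5 and Emp2 were not called, with -0.43, 1.27, 0.31 and 0.79. The calls for Hopx, Rtkn2 and Gramd2 were all lost when any 1 of NC 1, 2 or 3, Blank 1, 2 or 3, or SFD@M 1 or 2 was left out, which left 3 genes called. The lower Clic5 and Pdpn levels in Blank than in NC, given above, enter this difference, as do the control levels of the other genes. For Pdpn they rest on few counts and were not tested.

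Within the 6 OTUB1_KD and SFD@M libraries the genes did not vary together in size. Aqp5 spanned 5.21-fold, Ager 3.75-fold and Akap5 3.10-fold between the lowest and the highest library, against 1.95-fold for Cav1 and 1.46-fold for Pdpn. Likeness to Ager was measured as the root-mean-square difference of log2(CPM + 1), each gene centred on its mean over the 6 libraries, among 11075 genes with a mean of at least 10 CPM. Rarres2 (0.0908), Cox4i2 (0.102), Mmp15 (0.107), Car2 (0.113) and Bcam (0.119) were closest; they encode the chemoattractant chemerin, a cytochrome c oxidase subunit, a membrane metalloproteinase, a carbonic anhydrase and a laminin-binding adhesion protein. Of the other 9 listed genes Emp2 ranked 29 with 0.159, Aqp5 85 with 0.217, Hopx 392 and Gramd2 511, while Clic5 ranked 1947, Cav1 2784, Pdpn 2799 and Rtkn2 4130 with 0.61. Sftpc ranked 51 with 0.19, ahead of 8 of those 9 genes, and Pecam1, an endothelial junction gene, ranked 813. All 10 genes were lowest in OTUB1_KD replicate 1, where the Y-linked sum was 36.9% of the NC mean, and the part of that library in the likeness was not tested.

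**Figure D4:**
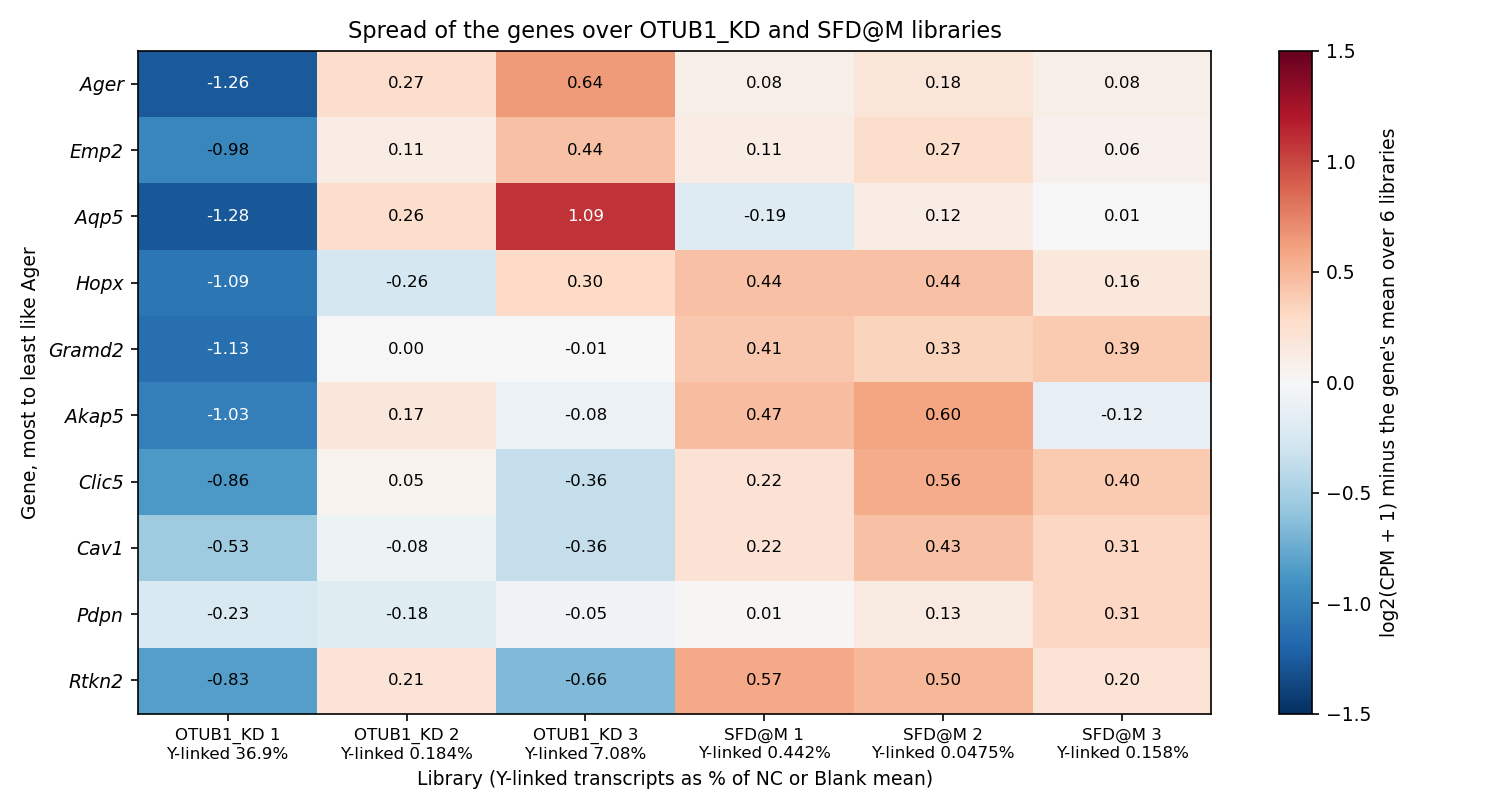
Deviation of log2(CPM + 1) from the gene's mean over 6 libraries (colour and printed value) for Ager and the other 9 genes (y axis, ordered from most to least like Ager) in OTUB1_KD and SFD@M libraries (x axis, with the Y-linked sum as a percentage of the NC or Blank mean). Ager lies 1.26 below its mean in OTUB1_KD replicate 1 and 0.64 above it in replicate 3, while Pdpn stays within -0.23 and 0.31.

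The balance of type 1 to type 2 signal was set by the TPM ratio of Ager to Sftpc within each library. It was 0.0516, 0.0488 and 0.0460 in SFD@M libraries and 0.0407, 0.0514 and 0.0690 in OTUB1_KD libraries. The groups overlapped, with a log2 difference of -0.11 (exact two-sided permutation p = 0.8, where 3 against 3 libraries cannot give less than 0.1). The TPM ratio of Ager to Pecam1 was 5.47, 4.89 and 5.56 in SFD@M libraries and 5.55, 7.43 and 10.3 in OTUB1_KD libraries, which also overlapped. The ratio of Pdpn to Ager was 0.0667, 0.0676 and 0.0819 in SFD@M libraries and 0.142, 0.0515 and 0.0443 in OTUB1_KD libraries, so OTUB1_KD replicate 1 stood highest.

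Other alveolar type 1 genes moved in the same direction. Of 16, 15 rose and 1 fell in both OTUB1_KD against NC and SFD@M against Blank, with median log2 fold changes of 8.16 and 9.77. The share of all genes tested that were called higher was 39.9% and 49.5%, and the share called lower was 25.8% and 38.7%. Krt7, a simple epithelial keratin, had 110.3, 298 and 512 CPM in OTUB1_KD libraries, against 1.37, 1.43 and 1.19 CPM in NC libraries, and 269, 264 and 263 CPM in SFD@M libraries, against 0.581, 0.406 and 0.350 CPM in Blank libraries. Col4a3, a basement membrane collagen chain, rose by 7.81 ± 0.41 and 9.54 ± 0.23 on the log2 scale. The exception was Sema3e, a semaphorin gene named after its values were seen, with log2 fold changes of -1.26 ± 0.14 and -0.77 ± 0.13. Sema3e was abundant in NC (217 to 229.7 CPM) and Blank (192 to 202 CPM) libraries.

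All 10 alveolar type 2 genes rose in both comparisons, among them Napsa, an aspartic protease that processes surfactant proteins, by 5.78 ± 0.39 and 7.90 ± 0.08 on the log2 scale. Among 7 genes of the passage from type 2 to type 1, all 7 rose in OTUB1_KD against NC, while 6 rose and 1 fell in SFD@M against Blank. Of all genes tested, 39.9% and 49.5% were called higher in these comparisons, and 25.8% and 38.7% lower. Krt8, a keratin of that intermediate state, was the gene that parted, and it is named after its values were seen. It had 428, 203 and 377 CPM in OTUB1_KD libraries, against 170.2, 180.0 and 173 CPM in NC libraries, and 165, 166 and 222 CPM in SFD@M libraries, against 311, 313 and 316 CPM in Blank libraries. Its difference between the experiments was -1.66 ± 0.34 on the log2 scale (edgeR adjusted p = 0.00801).

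Of 13 regulators tied to alveolar cell identity and to the Hippo pathway, 7 rose, 4 fell and 2 were not called in OTUB1_KD against NC, and 7 rose, 3 fell and 3 were not called in SFD@M against Blank. Over all genes tested, 39.9% were called higher and 25.8% lower in OTUB1_KD against NC. In SFD@M against Blank 49.5% were called higher and 38.7% lower. Nkx2-1, the lung lineage factor, had 56.7, 174 and 89.6 CPM in OTUB1_KD libraries and was at 0 in all NC libraries; it had 151, 147 and 139.0 CPM in SFD@M libraries, against at most 0.0581 CPM in Blank libraries. Foxa2, a forkhead factor of lung epithelium, rose by 3.06 ± 0.33 and 3.86 ± 0.13 on the log2 scale. Among those that fell, named after their values were seen, Yap1, the Hippo pathway co-activator, had log2 fold changes of -0.53 ± 0.14 and -0.68 ± 0.07, and Tead2, a DNA-binding partner of it, had -1.33 ± 0.17 and -1.82 ± 0.14. Ccn2, of the same list, went the other way, with a log2 fold change of 11.67 ± 0.70 in OTUB1_KD against NC (edgeR adjusted p = 3.26e-05). It had 56.8 to 136 CPM in OTUB1_KD libraries, against at most 0.0593 CPM in NC libraries. SFD@M libraries had 153 to 278 CPM of Ccn2, against at most 0.0583 CPM in Blank libraries. Among 6 ligands and partners of RAGE and podoplanin, 5 rose and 1 was not called in OTUB1_KD against NC, and 5 rose and 1 fell in SFD@M against Blank. Diaph1, a formin that binds the RAGE tail, rose by 1.30 ± 0.14 and 1.80 ± 0.08 on the log2 scale. Hmgb1, a nuclear protein that binds RAGE when released, fell by 1.11 ± 0.06 in SFD@M against Blank and was not called in OTUB1_KD against NC, at -0.71 ± 0.29 (edgeR adjusted p = 0.0665).

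Markers of other cells that make some of these genes moved as well. Of all genes tested, 39.9% were called higher and 25.8% lower in OTUB1_KD against NC. In SFD@M against Blank these shares were 49.5% and 38.7%. Of 14 capillary endothelial markers, 13 rose and 1 was not called in OTUB1_KD against NC. In SFD@M against Blank 13 rose and 1 fell. Their summed level was 1237 to 3079 CPM in OTUB1_KD, against 84.7 to 89.3 CPM in NC. It was 2787 to 3509 CPM in SFD@M, against 47.8 to 52.3 CPM in Blank. Cldn5, Car4, Ednrb and Gpihbp1 were at 0 in NC and Blank. Most of the NC and Blank sums was Apln, the marker that did not rise, which averaged 81.6 and 47.9 CPM there. Apln averaged 84.8 CPM in OTUB1_KD and 16.5 CPM in SFD@M. The 5 lymphatic markers all rose in both, to 140.5 to 328 CPM in OTUB1_KD, against 0.311 to 0.593 CPM in NC, and 588 to 753 CPM in SFD@M, against 0 to 0.058 CPM in Blank. Most of the SFD@M sum was Lyve1, with 443 to 644 CPM there and 63.0 to 128 CPM in OTUB1_KD. Flt4, Ccl21a, Mmrn1 and Prox1 averaged 50.1, 70.8, 15.9 and 2.82 CPM in OTUB1_KD. Their SFD@M means were 49.25, 46.9, 30.6 and 3.25 CPM. The 5 mesothelial markers all rose in both, to 501 to 1113 CPM in OTUB1_KD, against 2.31 to 2.50 CPM in NC, and 568 to 723 CPM in SFD@M, against 1.10 to 1.63 CPM in Blank, with Wt1 at 0 in NC and Blank. All 7 fibroblast, 6 cardiac muscle and 8 leukocyte markers also rose in both comparisons, as did 5 of 6 airway markers tested and the 3 and 4 gland markers tested, and all 4 cell division markers fell. The summed gland markers ran from 24.6 to 1191 CPM in OTUB1_KD libraries. They were lowest in replicate 3, the library with the most Aqp5 of its group. The part of all these other cells in the levels of Cav1, Pdpn, Aqp5 and Emp2 was not tested.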

How the data were processed

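Messenger RNA enriched with oligo(dT) from 12 tumour samples was sequenced, and samples were grouped by title and treatment label. The authors deposited, for 70659 transcripts, expected counts (estimated, not whole), TPM, FPKM and normalized read counts, a signal scaled by the authors and not used in any test here. Tools listed in the submitters' processing notes, without their roles, are RSEM 1.3.1, Bowtie2 and DESeq2 1.4.5, with the build GRCm39. Overlapping and antisense genes cannot be separated, since strand handling is not given in the sources used here.

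Expected counts were summed per gene (19155 of 19212 identifiers had a symbol; the other 57 held at most 0.342% of counts) and rounded. Repeated transcript copies of Ager and Pdpn were summed. Each comparison was fitted with edgeR 4.0.16 in R 4.3.3 (filterByExpr, TMM, robust quasi-likelihood test). A call is an adjusted p (Benjamini-Hochberg) below 0.05, and the test was checked on simulated counts. The difference between experiments was a contrast over 12 libraries. CPM is scaled by library totals. Depth was similar in all libraries. The 95% intervals come from the edgeR fit and include the spread between libraries, while floors cover counting error only. Same-numbered libraries did not deviate together, so no block was used.

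The rule named all 10 listed genes, up to 4 of smallest p from each other list, and those most like Ager. Sema3e, Krt8, Yap1, Tead2 and Apln, and the markers given as being at 0, fall outside it and were named after their values were seen. The lymphatic markers were also named after their values were seen. The genes, lists and tests were chosen with earlier results of these data known. Alternatives were DESeq2 1.42.0, its size factors, no low-count filter, limma 3.58.1 on log2(TPM + 1) and log2(TPM + 0.1), a replicate block, leaving out each library and, for the Ager to Sftpc ratio, FPKM in place of TPM. Promoters came from RefSeq on GRCm38.p6.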

Additional observations from a re-analysis of the deposited data

Results flagged for a closer look

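The change in SFD@M against Blank was larger than the change in OTUB1_KD against NC, by the test of the difference itself, for 6 of the 10 genes. Over all 15304 genes tested, 23.1% were called, 12.4% in that direction. The calls for Hopx, Rtkn2 and Gramd2 were lost in most fits with 1 library left out, as given above. The difference was 2.63 on the log2 scale for Clic5, whose change was 10.02 in SFD@M against Blank and 7.42 in OTUB1_KD against NC, with 12 to 16 counts in each Blank library. It was 2.41 for Pdpn (changes of 10.28 and 7.91), with 1 to 3 counts in each Blank library, so that the size of its change rests on few reads. It was 1.32 for Gramd2 (6.82 and 5.53), 1.30 for Hopx (6.04 and 4.77), 0.99 for Rtkn2 (2.04 and 1.08) and 0.87 for Cav1 (1.16 and 0.32). Beside these stand the levels of the control libraries, where Blank differed from NC by -1.82 for Clic5, -0.65 for Hopx, -0.60 for Gramd2, -0.18 for Cav1 and -0.14 for Rtkn2. Pdpn had too few counts for that test and averaged 0.1164 CPM in Blank and 0.4985 CPM in NC. The Y-linked sum was 0.184% to 36.9% of the NC mean in OTUB1_KD libraries and 0.0475% to 0.442% of the Blank mean in SFD@M libraries. The part of the control levels and of the Y-linked sum in the differences was not tested, and experiment and group cannot be told apart.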

How the results depend on the processing

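The 9 calls among the 10 genes in OTUB1_KD against NC and all 10 in SFD@M against Blank kept direction and call under every alternative run. SFD@M against OTUB1_KD did not hold its counts: edgeR called 2 genes, against 15 with no filter, 1372 by DESeq2, 10 and 8 by limma on log2(TPM + 1) and log2(TPM + 0.1), and 0 to 1875 with 1 library left out, the 1875 without OTUB1_KD replicate 2. Of the 10 genes it called 0, against 1 by DESeq2 (Cav1) and 0 to 1 with 1 library left out (Rtkn2, 1.16, edgeR adjusted p = 0.0219, without OTUB1_KD replicate 2). There, with 1 library left out, the log2 fold change ran from -0.35 to 0.47 for Ager (-0.0042 without SFD@M replicate 2), -0.13 to 0.52 for Emp2 and -0.76 to 0.35 for Aqp5, each turning sign without OTUB1_KD replicate 1 or 3 and none called. The log2 difference of the Ager to Sftpc ratio ran from -0.289 without OTUB1_KD replicate 1 to 0.0921 without replicate 3. The difference between the changes was called for 2090 to 5523 genes and for 3 to 6 of the 10 genes with 1 library left out, where Ager ran from -0.81 without OTUB1_KD replicate 1 to 0.0032 without replicate 3. Rtkn2 also lost that call with DESeq2 size factors, with no filter and on both TPM scales (adjusted p = 0.0517, 0.0592, 0.0567 and 0.0545), and Emp2 gained it without OTUB1_KD replicate 3 (1.13, adjusted p = 0.0290). In Blank against NC, the Rtkn2 call was lost on both TPM scales and that of Gramd2 without NC replicate 3, while Ager gained a call on both TPM scales and without Blank replicate 1. The causes were not tested. Same-numbered libraries correlated by -0.00433 to 0.0411 in their deviations and so share only a number; with a replicate block, SFD@M against OTUB1_KD had 7 calls, OTUB1_KD against NC 9362 and SFD@M against Blank 13010, and no call among the 10 genes changed in any comparison. Depth limits Ager, Pdpn, Aqp5 and Akap5 in NC and Blank, where 1 to 32 counts per library lie behind each level, and Clic5 in Blank, with 12 to 16.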
